A study of Mus musculus with 23 samples.

Results

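Axon guidance ligands and receptors were followed in the axonal and the cell-body RNA of mouse hippocampal neurons that had or had not been pulled through magnetic nanoparticles (MNPs). The genes were chosen by symbol as the protein-coding semaphorins of classes 3 to 7, plexins, neuropilins, Slits, Robos, netrins and netrin-Gs, Dcc, Unc5 receptors, ephrins and Eph receptors. Of the 55487 gene IDs in the count tables, 71 met this rule, of which 37 code for ligands and 34 for receptors. They comprised 20 semaphorins, 11 plexins or neuropilins, 7 Slits or Robos, 11 genes of the netrin system, 8 ephrins and 14 Eph receptors. Another 3 matching symbols belonged to antisense genes of Plxna4 and were left out, and since the strand setting of the counting is not given in the sources used here, reads of Plxna4 and of its antisense genes cannot be told apart.

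Cells from hippocampi of newborn C57Bl/6 mice (postnatal day 1) were plated on the soma side of a microfluidic chamber, from which axons grow into a side of their own. All 4 groups received MNPs at 5 µg/ml, so no group shows the cells without particles. Stretched cultures were exposed to a field gradient of 50 T/m between days in vitro (DIV) 1 and 6, and control cultures to a null gradient over the same days. There were 5 libraries of control axons and 6 each of stretched axons, control somata and stretched somata. The labels describe the soma libraries as the total culture and the axonal ones as pure axons, and both are bulk preparations of unsorted cells. How many animals were pooled and whether replicates came from separate cultures is not stated, so p-values here measure only the spread between these libraries, which may be technical.

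Guidance cues are secreted or membrane-bound proteins that attract or repel a growing axon tip. Semaphorins act through plexins, with neuropilins as binding partners for most secreted class 3 members. Slits act through Robo receptors, netrins through Dcc and Unc5 receptors, and ephrins through Eph receptor tyrosine kinases, with ephrins also able to signal back into the cell that carries them. In the hippocampus these families are known for sorting axons into layers, pruning branches and shaping synapses.

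Total counts ranged from 16369153 to 43048953 per library, and 3 counts, used here as the detection floor, equalled 0.0697 to 0.183 counts per 1000000 (CPM). Such floors cover counting error only, because amplified reads are not independent molecules. The library labelled control soma replicate 4 stood apart before any guidance gene was examined. On the first principal component of all tested genes (30.9% of the variance) it lay at 31.2, among the stretched somata (8.6 to 40.8), while the other control somata lay between -52.3 and -26.1. The soma libraries also fell into sets with higher and lower counts of the Y-linked gene Eif2s3y, 6 libraries in each and 3 of each condition in both, a division that is in the data and not in the labels. Summed levels of 8 neuron markers were 5725 to 6893 CPM in control and 5445 to 6064 CPM in stretched somata, and those of 8 astrocyte markers were 5143 to 14540 and 5350 to 11310 CPM. The 7 microglia markers summed to 41.3 to 86.8 CPM in control and 29.0 to 36.9 CPM in stretched somata, and 3 of them fell with stretch. In the axonal libraries the astrocyte markers summed to 4651 to 25630 CPM in control and 4790 to 19600 CPM in stretched cultures, beside 1283 to 4385 and 2314 to 3958 CPM for the neuron markers, although the labels call these libraries pure axons. There 5 somatodendritic or nuclear transcripts summed to 1035 to 3272 CPM in control and 1029 to 3277 CPM in stretched cultures, beside 2568 to 3342 and 1894 to 2800 CPM in somata. The 7 mural or fibroblast markers reached 1117 and 2696 CPM in axonal libraries, beside 452.5 and 434.3 CPM in somata. Which cells or compartments the guidance reads of axonal libraries came from was not tested. In these bulk libraries fewer cells of a type and less RNA per cell cannot be told apart.

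Among receptors, the neuropilins and Epha4 had the highest levels in somata, and among ligands Efnb3 stood far above the rest. Levels between genes were compared per kb of exon, as CPM normalized by the trimmed mean of M-values (TMM) and divided by the length of the gene's merged exons. Nrp1 was measured at 53.2 ± 6.60 CPM per kb in control and 62.3 ± 2.03 CPM per kb in stretched somata (SD, n = 6 each). Nrp2 reached 43.7 ± 13.3 and 67.1 ± 3.33 CPM per kb, and Epha4 47.3 ± 4.10 and 48.8 ± 2.83 CPM per kb. The control means of these 3 receptors lay within the spread of Nrp2, so their order in control somata is not resolved on this scale. Merged exons and longest transcript measure 9785 and 3645 bases for Nrp1, 11842 and 6723 for Nrp2, and 8054 and 6328 for Epha4. Orders per kb therefore depend on the length used. Plxnb2, at 22.4 CPM per kb over all 12 soma libraries, and Plxna2, at 19.2 CPM per kb, followed.

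Efnb3, a transmembrane ephrin, was measured at 68.1 ± 9.03 CPM per kb in control and 85.0 ± 10.0 CPM per kb in stretched somata. The next ligands per kb over all soma libraries were the transmembrane semaphorin Sema6a at 15.7 CPM per kb and the membrane-anchored ephrin Efna3 at 13.0 CPM per kb, followed by Sema6d at 10.1 and Sema4d at 8.82 CPM per kb. At the other end, Sema3f, Sema3g, Ntn4, Ntn5, Robo4 and Epha1 were too rare to be tested in somata, all at or below 0.0590 CPM per kb. The midline cue Ntn1 was tested but was low as well, at 0.195 CPM per kb, whereas its receptor Dcc stood at 4.67 CPM per kb.

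**Figure D1:**
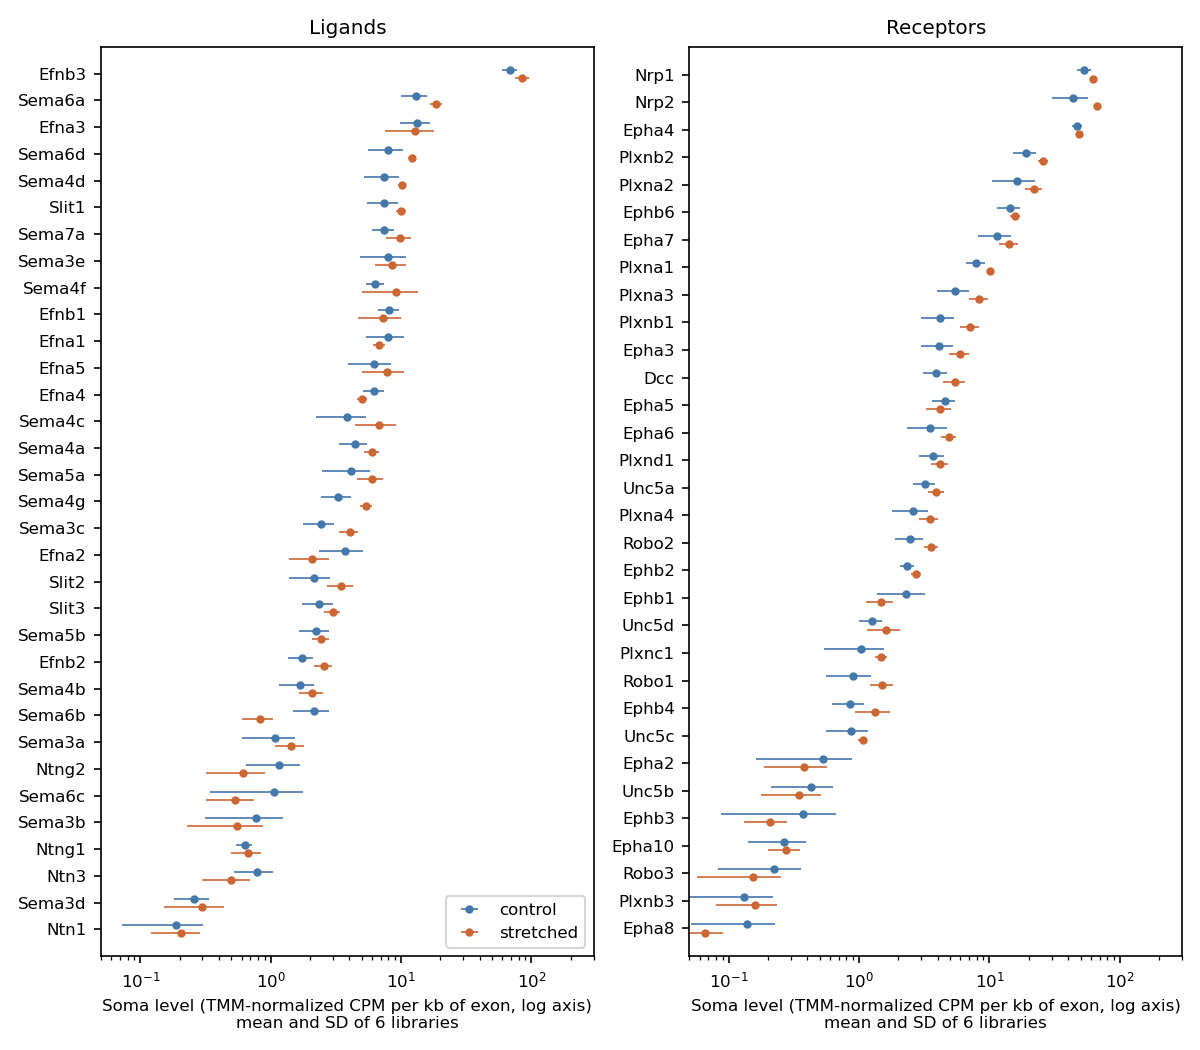
Level of each tested guidance gene in somata, in TMM-normalized CPM per kb of exon on a log axis, for ligands (left) and receptors (right); points are means and bars SDs of 6 control (blue) or 6 stretched (orange) libraries. Efnb3 leads the ligands at 76.6 CPM per kb over both groups, and Nrp1, Nrp2 and Epha4 lead the receptors at 57.7, 55.4 and 48.0.

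Stretch was followed in somata by higher RNA of some guidance genes, among them several semaphorins and plexins, Nrp2, Slit1, Slit2, Robo1 and Robo2. RNA of Sema6b and Efna2 was lower. By edgeR's quasi-likelihood test with Benjamini-Hochberg adjustment over all 15632 genes tested, 19 of the 65 guidance genes tested were higher in stretched somata (29.2%) and 2 were lower (3.08%) at an adjusted p under 0.05. Over all genes tested, 11.2% were called higher and 13.9% lower. The median log2 fold change was 0.32 over the 65 guidance genes and -0.03 over all genes, and 48 of the 65 had a positive value, against 47.4% of all genes. Ligands (10 higher and 2 lower of 33 tested) and receptors (9 higher and 0 lower of 32) had the same median to 2 decimals, 0.32. By family, the calls were 6 higher and 1 lower of 18 semaphorins, 5 and 0 of 11 plexins and neuropilins, 4 and 0 of 6 Slits and Robos, 1 and 0 of 9 netrin-system genes, 2 and 1 of 8 ephrins, and 1 and 0 of 13 Eph receptors.

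These counts depend on single libraries and on the model. Without control soma replicate 4, 31 guidance genes were higher (47.7%; 18.2% of all genes) and 6 lower (20.1% of all genes), and all 19 of the original higher calls were among the 31. Without control soma replicate 1 the higher count fell to 12 (6.66% of all genes). When all 4 groups shared 1 estimate of spread with the axonal libraries, 0 guidance genes and 0 of 16113 genes passed in somata, and 0 guidance genes and 262 genes had an unadjusted p under 0.05. Of the 19 higher members, 11 (Sema4g, Sema3c, Sema6a, Sema6d, Plxnb1, Plxnb2, Plxna3, Nrp2, Robo2, Slit2 and Efnb2) kept their call whichever single library was left out, and so did Sema6b among the lower ones.

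**Figure D2:**
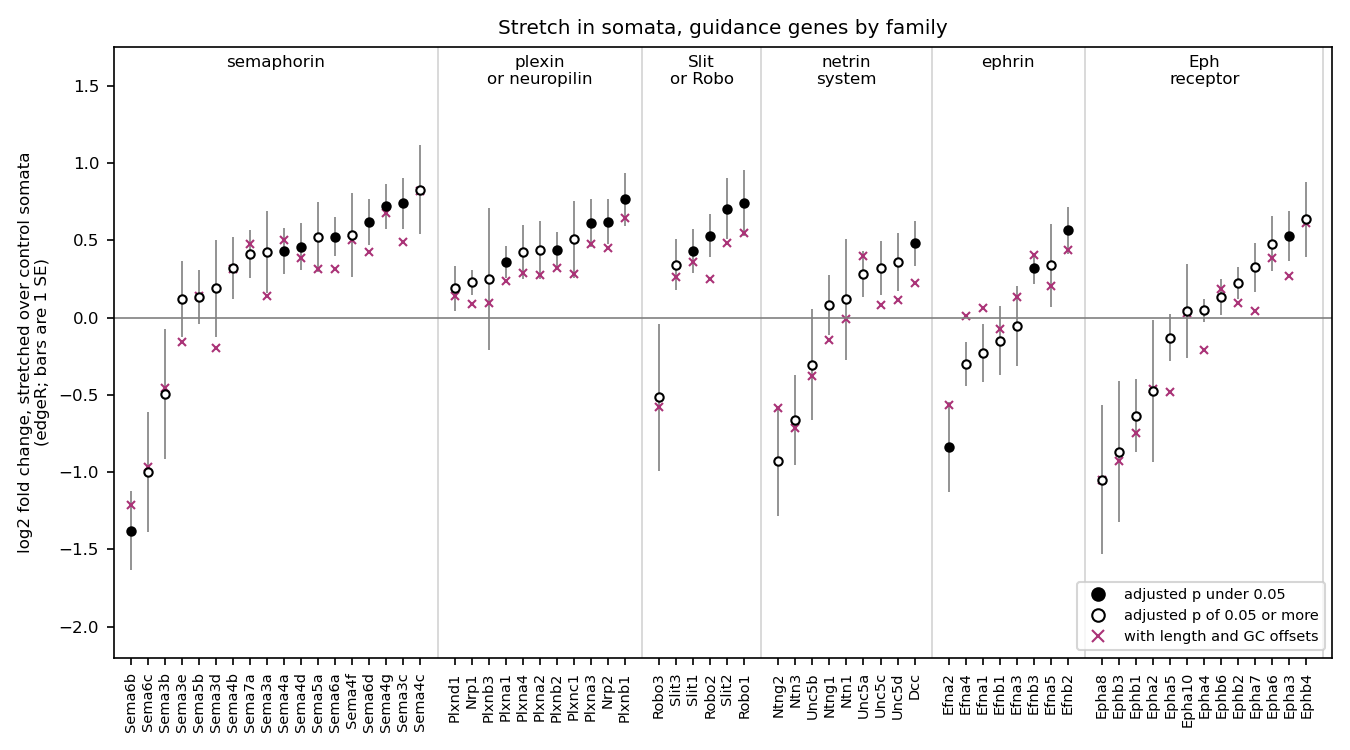
Log2 fold change of stretched over control somata (edgeR, bars are 1 SE) for the 65 tested guidance genes by family; filled points have an adjusted p under 0.05, and crosses show the value with offsets for transcript length and GC content. The 19 filled points above 0 are mostly semaphorins, plexins, Slits and Robos, and the 2 below 0 are Sema6b and Efna2.

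Of the semaphorin receptors, the plexins B1, B2, A1 and A3 and the co-receptor Nrp2 were higher in stretched somata. Plxnb1 (chr9:109095389-109119917, GRCm38, plus strand) codes for the receptor of Sema4d. Its normalized level was 26.8, 37.0 and 56.1 CPM (lowest, median and highest) in control and 56.2, 66.6 and 84.0 CPM in stretched somata. The highest control library lay just under the lowest stretched one, so the groups did not overlap. The log2 fold change was 0.77 (SE 0.17, adjusted p = 0.00857). Only 3 of the 65 guidance genes, Plxnb1, Sema4g and Nrp1, had higher stretched values with no overlap in all 12 libraries (4.62%), against 1.31% of all genes tested. 0 of the 65 were lower without overlap, against 2.73% of all genes.

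Nrp2 (chr1:62703285-62818695, GRCm38, plus strand) binds Sema3f and Sema3c with plexin A partners. Its level was 399, 459 and 820.4 CPM in control and 757, 786 and 864 CPM in stretched somata. The value of 820.4 CPM belonged to control replicate 4, and the other 5 control libraries reached at most 547 CPM, below every stretched library. The log2 fold change was 0.62 (SE 0.15, adjusted p = 0.0101), and 0.79 (adjusted p = 1.4e-05) without that library.

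Nrp1, the sister receptor that binds Sema3a and VEGF, ranged from 426 to 571 CPM in control (median 554) and from 576 to 632 CPM in stretched somata (median 614). All 6 stretched libraries exceeded all 6 control libraries, yet the difference was small, with a log2 fold change of 0.23 (SE 0.08), and it missed the threshold (adjusted p = 0.0531). It passed by DESeq2 (adjusted p = 0.0311) and without control replicate 4 (adjusted p = 0.0247), a library left out for lying among the stretched somata on the first principal component. With the offsets for length and GC content described below, the edgeR value was 0.08 (adjusted p = 0.511). With these offsets and without control replicate 4 it was 0.07 (adjusted p = 0.573).

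Plxna3, a plexin A that pairs with neuropilins for class 3 semaphorins, had a median of 38.8 CPM in control (33.3 to 64.7) and 63.7 CPM in stretched somata (52.9 to 79.4), with a log2 fold change of 0.61 (SE 0.16, adjusted p = 0.0139). Plxnb2, a receptor of class 4 semaphorins, rose from 138 CPM (120.1 to 202) to 197 CPM (179 to 220.0), a log2 fold change of 0.44 (SE 0.12, adjusted p = 0.0164). Plxna1 moved least among the plexins called, from 66.7 CPM (62.0 to 93.1) to 91.2 CPM (83.3 to 100.4), a log2 fold change of 0.36 (SE 0.10, adjusted p = 0.0219). In all 3 the groups overlapped through control replicate 4, and without it each group of control values lay below all stretched values. Plxna2 and Plxna4 had values of similar size, 0.44 (SE 0.19) and 0.42 (SE 0.17), and did not pass (adjusted p = 0.103 and 0.0850).

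Among the semaphorins themselves, Sema4g, Sema3c, Sema6a, Sema6d, Sema4d and Sema4a were higher in stretched somata, whereas Sema6b was lower. Sema4g (chr19:44989101-45003397, GRCm38, plus strand) codes for a transmembrane class 4 semaphorin. It was measured at 21.8, 26.0 and 41.8 CPM in control and 42.1, 45.9 and 55.5 CPM in stretched somata, with no overlap between the groups. The highest control value was again replicate 4. The log2 fold change of 0.72 (SE 0.15, adjusted p = 0.00622) had the smallest adjusted p among the higher guidance genes.

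Sema3c, a secreted semaphorin that binds both neuropilins, had a median of 15.3 CPM (13.5 to 25.4) in control and 27.8 CPM (22.6 to 36.2) in stretched somata, a log2 fold change of 0.74 (SE 0.16, adjusted p = 0.00817). Sema6d and Sema6a, transmembrane semaphorins that bind plexin A receptors, had medians of 73.7 and 106 CPM in control and of 129 and 163 CPM in stretched somata. Their log2 fold changes were 0.62 (SE 0.15, adjusted p = 0.0112) and 0.52 (SE 0.13, adjusted p = 0.0109). In both, control replicate 4, at 133 CPM for Sema6d and 165 CPM for Sema6a, lay inside the stretched range. Of the class 4 semaphorins called, those with the smallest changes were Sema4d, the ligand of Plxnb1, at 0.46 (SE 0.15, adjusted p = 0.0364) and Sema4a at 0.43 (SE 0.15, adjusted p = 0.0453). Leaving out any of 9 single libraries ended the call of Sema4d, and any of 10 ended that of Sema4a.

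Sema6b (chr17:56123085-56140343, GRCm38, minus strand), another class 6 semaphorin that binds plexin A receptors, went the other way. Its level was 3.60, 9.76 and 10.4 CPM in control and 2.05, 3.13 and 4.40 CPM in stretched somata. The low control value was replicate 4, and the other 5 control libraries, at 7.29 CPM or more, all exceeded the stretched ones. The log2 fold change was -1.38 (SE 0.26, adjusted p = 0.00448), so Sema6b and the other class 6 genes called, Sema6a and Sema6d, changed in opposite directions. Sema4c had the highest value of all tested guidance genes, 0.83 (SE 0.29), and did not pass (adjusted p = 0.0506). Sema3a, a classical secreted repellent, had medians of 14.0 and 19.4 CPM with overlapping groups and a log2 fold change of 0.42 (SE 0.26, adjusted p = 0.251).

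**Figure D3:**
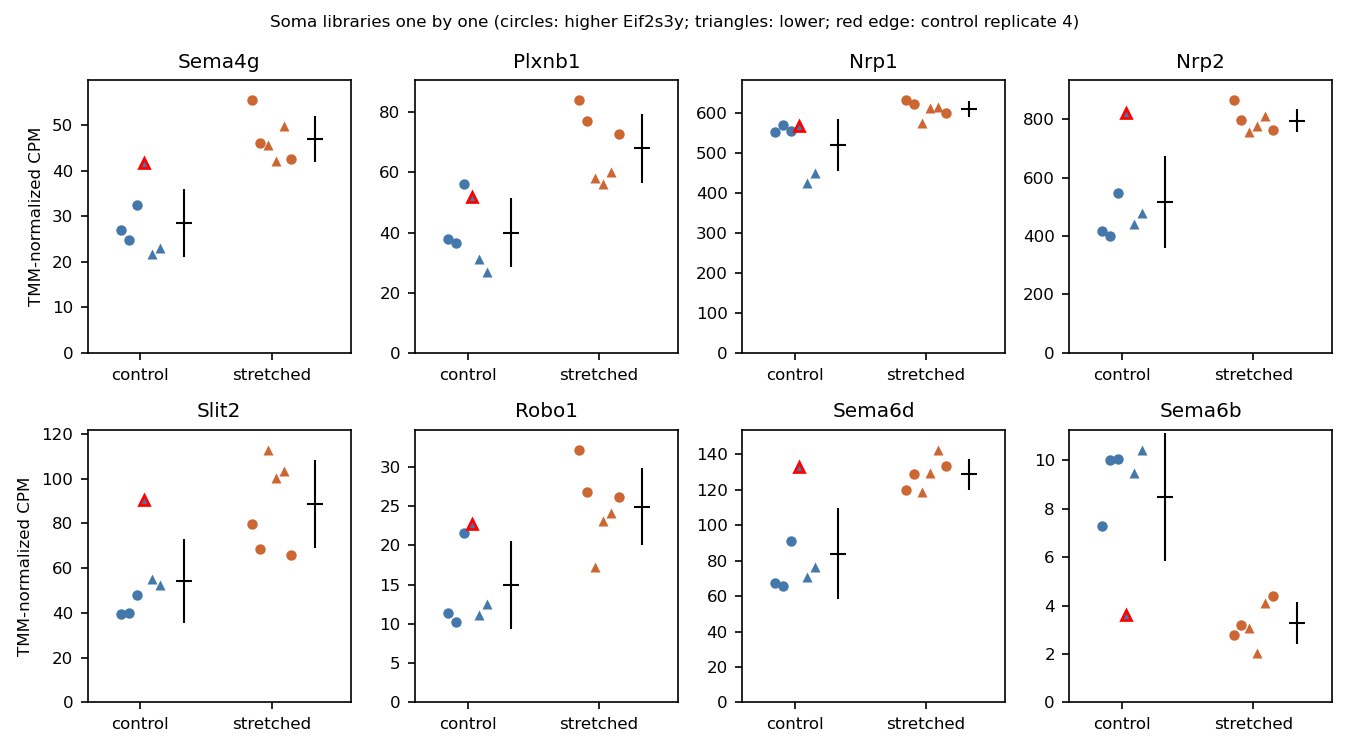
TMM-normalized CPM of 8 guidance genes in each soma library, with mean and SD beside each group; circles are libraries with higher and triangles with lower Eif2s3y, and the red edge marks control replicate 4. That library lies near or within the stretched group for Sema4g, Nrp2, Slit2, Sema6d and Sema6b, and in Nrp1 and Plxnb1 it lies among the other controls.

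Both Slits 1 and 2 and the receptors Robo1 and Robo2, the repellent ligands and receptors of the midline and of dendrite patterning, were higher in stretched somata. Slit2 (chr5:47983138-48307733, GRCm38, plus strand) had values of 39.5, 50.2 and 90.4 CPM in control and 66.0, 89.9 and 113 CPM in stretched somata. Control replicate 4 gave the 90.4 CPM, and the remaining controls ended at 55.0 CPM, below all stretched libraries. The log2 fold change was 0.71 (SE 0.20, adjusted p = 0.0211). Robo1 stood at 11.4, 10.2, 21.5, 22.7, 11.2 and 12.5 CPM in control replicates 1 to 6 and at 32.2, 26.8, 17.2, 23.1, 24.2 and 26.2 CPM in stretched replicates 1, 2, 4, 5, 6 and 8. It rose by 0.74 on the log2 scale (SE 0.21, adjusted p = 0.0223). Its groups overlapped also without replicate 4, because control replicate 3 stood at 21.5 CPM and stretched replicate 4 at 17.2 CPM. Robo2 rose from 39.0 CPM (35.0 to 61.0) to 61.1 CPM (49.1 to 71.4), by 0.53 on the log2 scale (SE 0.14, adjusted p = 0.0149). For Slit1 the value was 0.43 (SE 0.14, adjusted p = 0.0386), and any of 10 left-out libraries ended the call. Slit3, at 0.34 (SE 0.16, adjusted p = 0.129), did not pass, nor did Robo3, at -0.51 (SE 0.48, adjusted p = 0.446).

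In the netrin system the receptor Dcc was the only gene called. Its median was 46.9 CPM (43.6 to 71.9) in control and 72.5 CPM (55.1 to 85.6) in stretched somata, a log2 fold change of 0.48 (SE 0.15, adjusted p = 0.0266). The 3 stretched libraries with lower Eif2s3y lay at 80.4 to 85.6 CPM, above the other stretched libraries at 55.1 to 64.7 CPM. Its ligand Ntn1 was low, with medians of 0.827 CPM in control and 1.34 CPM in stretched somata. The log2 fold change of Ntn1 was 0.12 (SE 0.39, adjusted p = 0.850), and its sign changed without control replicate 4. The repulsive netrin receptors Unc5a, Unc5c and Unc5d had values of 0.28 to 0.36, Unc5b had -0.30 (SE 0.36, adjusted p = 0.559), and the netrin-G gene Ntng2, whose product is a membrane-anchored synaptic ligand, -0.93 (SE 0.35, adjusted p = 0.0629). None of these 5 passed.

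Among ephrins, the transmembrane Efnb2 and Efnb3 were higher and the membrane-anchored Efna2 was lower in stretched somata. The other transmembrane ephrin, Efnb1, had a value of -0.15 (SE 0.22, adjusted p = 0.648). Efnb3 (chr11:69554092-69560205, GRCm38, minus strand) had values of 190.1, 216 and 245 CPM in control and 229, 269 and 306 CPM in stretched somata, with overlapping groups and a log2 fold change of 0.32 (SE 0.10, adjusted p = 0.0311). Within the libraries with higher Eif2s3y the stretched values (288 to 306 CPM) all exceeded the control values (190.1 to 245 CPM). Within those with lower Eif2s3y the groups overlapped, with control values of 190.5 to 240.2 CPM, stretched values of 229 to 251 CPM and a log2 fold change of 0.23 (adjusted p = 0.338). Efnb2 rose from a median of 11.5 CPM (9.43 to 16.8) to 17.9 CPM (13.3 to 20.8), a log2 fold change of 0.56 (SE 0.15, adjusted p = 0.0179). Efna2 fell from 8.25 CPM (2.97 to 11.6) to 4.24 CPM (2.89 to 6.59), a log2 fold change of -0.84 (SE 0.29, adjusted p = 0.0457). Its lowest control value was replicate 4, and any of 9 single libraries left out ended the call.

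Of the Eph receptors, Epha3 alone was called, with medians of 34.2 CPM (27.3 to 54.6) and 49.1 CPM (43.0 to 64.2) and a log2 fold change of 0.53 (SE 0.16, adjusted p = 0.0278). Epha4, which binds ephrins of both classes and was the most abundant Eph receptor per kb, had medians of 385 CPM (329 to 419.8) and 391 CPM (368 to 434). Its log2 fold change was 0.05 (SE 0.07, adjusted p = 0.677), and it became -0.21 with the offsets for length and GC content described next. Ephb4 and Ephb1 had opposite values of equal size, 0.63 (SE 0.24) and -0.63 (SE 0.23), and neither passed (adjusted p = 0.0639 and 0.0580).

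Control replicate 4 lay at the top of its group for most of the higher genes. For 16 of the 19 higher genes it exceeded every other control library, and for 17 it was at or above the lowest stretched library. With it left out, 21 of the 65 guidance genes were higher with no overlap (32.3%), against 12.3% of all genes, and 2 were lower (3.08%), against 10.6%. The 2 lower ones were Sema6b and Efna2. Because the library was left out for lying among the stretched somata, the smaller overlap follows in part from that choice.

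Some guidance genes also differed along the division by Eif2s3y. In 9 of the 65 (13.8%; 5.1% of all genes) every library with lower Eif2s3y exceeded every library with higher Eif2s3y in both conditions, namely Epha7, Sema3a, Sema3e, Sema5a, Efna5, Plxna4, Plxnd1, Slit2 and Slit3. The reverse held for 0 guidance genes, against 5.51% of all genes. Within the set with higher Eif2s3y, 35 guidance genes were called higher with stretch (16.5% of all genes) and 1 lower (12.7%), and 17 of the 19 were among the 35. Within the set with lower Eif2s3y, which holds control replicate 4, edgeR called 0 (0.0% of all genes), although all 19 had positive values, and 14 guidance genes had an unadjusted p under 0.05. Without that library all 19 were called in this set (27 higher in all; 13.2% of all genes). The library was left out after it was seen to lie among the stretched somata, which widens the gap between the groups. The 19 were also called from fits that include the remaining libraries, so these calls are no independent support.

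Longer transcripts tended to have higher values in stretched somata, and guidance transcripts are long. The longest transcript of the tested guidance genes had a median length of 5228 bases, against 3304 over all genes tested, and of the 19 higher genes 6497 bases. Spearman's rank correlation between length and log2 fold change was 0.399 over the 65 guidance genes and 0.457 over 15619 genes, which describes these genes and treats none of them as a replicate. With offsets that remove the smooth trend with length and GC content, 15 guidance genes were higher (6.04% of all genes) and 2 lower (9.98%), and their median fell to 0.18. Of the 19 higher calls, 13 remained, while Robo1, Robo2, Plxna1, Dcc, Epha3 and Sema4d lost theirs, with values of 0.23 to 0.55, and so did Efna2 (-0.56). The part of length in the result was not tested beyond these offsets.

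**Figure D4:**
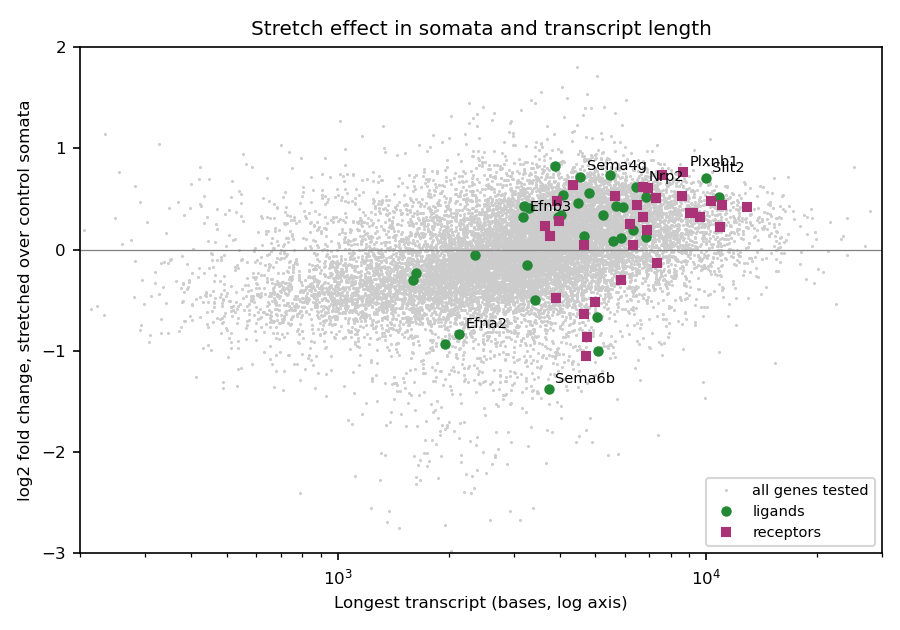
Log2 fold change of stretched over control somata against the length of the longest transcript (log axis) for all tested genes (grey), guidance ligands (green circles) and receptors (purple squares). Most guidance genes lie at lengths above the median of all genes, 3304 bases, and above 0 on the vertical axis.

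Other genes of guidance signalling, from a fixed list of 70, moved less uniformly. In stretched somata 24 were higher and 8 lower, with a median log2 fold change of 0.23, which fell to 0.08 with the offsets (14 higher, 10 lower). Over all genes tested, 11.2% were called higher and 13.9% lower, and with the offsets 6.04% and 9.98%. Among 17 other cues and co-receptors, mostly adhesion molecules of the immunoglobulin family, 10 were higher and 0 lower, with a median of 0.39. They included Neo1, the Dcc relative that binds netrins and RGM proteins, at 0.53 (SE 0.15, adjusted p = 0.0178), its ligand Rgma at 0.64 (SE 0.21, adjusted p = 0.0424), and L1cam, a neuropilin partner, at 0.49 (SE 0.12, adjusted p = 0.0113). Of the 4 proteases that shed ligands and receptors, Adam10 rose by 0.95 (SE 0.19, adjusted p = 0.00657) and Adam17 by 0.41 (SE 0.10, adjusted p = 0.0101) on the log2 scale.

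Of the 49 cytoplasmic effectors, 12 were called higher (11.2% of all genes) and 8 lower (13.9% of all genes), with a median of 0.10. The kinase Abl1, which acts downstream of Robo, was higher (0.55, SE 0.13, adjusted p = 0.0113), as was Dpysl2, the CRMP2 of semaphorin collapse signalling (0.49, SE 0.11, adjusted p = 0.00874). The lower genes included the GTPase Rac1 (-1.35, SE 0.36, adjusted p = 0.0191), the cofilin kinase Limk1 (-1.10, SE 0.28, adjusted p = 0.0145) and the cofilin gene Cfl1 (-0.43, SE 0.10, adjusted p = 0.00896). The Src-family kinase Fyn, shared by several guidance receptors, was lower as well (-0.70, SE 0.18, adjusted p = 0.0127). Among the higher genes were the actin regulators Enah (0.35, SE 0.10, adjusted p = 0.0202) and Ablim3 (0.42, SE 0.11, adjusted p = 0.0165), so genes acting on actin were called in both directions. The members of this list were not replicates of a condition, and the same 12 libraries underlie all of these values.

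Marker lists moved alongside. In stretched somata 4 of the 8 neuron markers were lower and 1 higher, 2 of 4 inhibitory neuron markers (Gad1 and Slc32a1) were higher, 0 of 8 astrocyte markers were called, and 3 of 7 microglia markers (C1qa, C1qb and Tyrobp) were lower, with a list median of -0.80. The 4 inhibitory markers summed to 161 to 255 CPM in control and 204 to 275 CPM in stretched somata. Over all genes tested, 11.2% were called higher and 13.9% lower. The 8 oligodendrocyte-lineage markers summed to 42.91 to 74.45 CPM in control and 39.2 to 56.13 CPM in stretched somata. Of these markers only Sox10 was at 0 in every soma library. The part of these markers in the guidance results was not tested.

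The starts of 3 guidance genes are shown because Plxnb1 and Nrp2 rose and Sema6b fell with stretch. The sequences are the 250 bases before the RefSeq transcription start (GRCm38.p6), written along the gene's strand, with GC boxes (GGGCGG on either strand) in capitals. Plxnb1 is at chr9:109095186-109095435 (plus strand), Nrp2 at chr1:62703067-62703316 (plus strand) and Sema6b at chr17:56140344-56140593 (minus strand, the upstream one of its 2 starts).
Plxnb1: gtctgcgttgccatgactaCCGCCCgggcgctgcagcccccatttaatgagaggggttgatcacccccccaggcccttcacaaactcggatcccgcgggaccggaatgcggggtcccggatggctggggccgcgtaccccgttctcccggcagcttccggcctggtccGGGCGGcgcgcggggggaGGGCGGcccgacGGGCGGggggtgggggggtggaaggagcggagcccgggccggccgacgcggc
Nrp2: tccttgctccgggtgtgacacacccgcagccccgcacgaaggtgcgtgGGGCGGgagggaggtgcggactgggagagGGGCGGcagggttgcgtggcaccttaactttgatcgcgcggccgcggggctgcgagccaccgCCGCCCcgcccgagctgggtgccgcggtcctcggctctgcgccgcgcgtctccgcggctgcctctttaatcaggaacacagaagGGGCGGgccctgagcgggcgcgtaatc
Sema6b: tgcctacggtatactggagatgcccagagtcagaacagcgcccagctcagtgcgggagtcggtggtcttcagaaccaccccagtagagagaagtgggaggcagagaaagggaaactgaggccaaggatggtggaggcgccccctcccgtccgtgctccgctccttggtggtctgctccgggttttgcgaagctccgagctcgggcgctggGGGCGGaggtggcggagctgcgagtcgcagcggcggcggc
These stretches hold 4 GC boxes each in Plxnb1 and Nrp2 and 1 in Sema6b, so the genes that rose and the gene that fell both carry the motif. RefSeq windows of 300 bases (250 before and 50 after the start) were found for 61 of the 71 guidance genes, 77 windows in all. The higher genes had 23 windows, from 14 of the 19 genes. Several of these windows were alternative starts of 1 gene, as for Sema4a, Sema4d, Robo2 and Plxnb2, so shares of windows are not shares of genes. A GC box was present in 70.1% of the guidance windows, in 60.9% of the 23 windows of higher genes, and in 35.7% of all 32851 RefSeq windows. The windows of guidance genes had a median GC content of 64.0%, against 52.7% for all windows. A TEAD motif (GGAATG, either strand) is the site of the partners of the mechanosensitive factors YAP and TAZ. It was in 13.0% of guidance windows, in 21.7% of those of the higher genes (5 of 23 windows) and in 14.7% of all windows. A match describes the letters of a window and is not evidence of binding.

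In axons, guidance RNAs were found unevenly from library to library. At least 1 count in any of the 11 axonal libraries was recorded for 52 of the 71 genes, 27 ligands and 25 receptors, and 9 of these were seen in exactly 1 library. Between 12 and 36 guidance genes had a count in a control axon library and between 12 and 28 in a stretched one, with a median of 16 in both groups. With more than 3 counts there were 9 to 30 genes per control and 7 to 27 per stretched library, so some of these detections lay at or under the floor. Of the genes tested in somata, 18.5% to 55.4% of guidance genes and 26.7% to 56.8% of all genes had a count per control library, and 18.5% to 43.1% and 21.6% to 57.8% per stretched library. Control replicate 5 and stretched replicate 8, the axonal libraries with most genes counted, held the highest numbers.

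The guidance RNAs seen most often in the axonal libraries coded for receptors. Nrp2 was counted in all 11 libraries, Nrp1 in 10, Epha4 and Epha5 in 9, Plxna2 and Epha7 in 8, and Ephb2 in 7. The ligands seen most often were Sema5b, in 7 libraries and at no more than 0.267 CPM, and Sema3e, in 6. Another 7 genes, Dcc, Plxna4, Sema4d, Sema4f, Efna3, Efna5 and Efnb3, were counted in 5 libraries each. Genes with higher soma levels were counted in more axonal libraries, and Spearman's rank correlation between the number of axonal libraries with a count and the soma level was 0.728 over 71 genes, which share these libraries. The 9 genes at 100 CPM or more in somata were counted in a median of 8 axonal libraries, the 38 between 10 and 100 CPM in 3, and the 18 tested genes under 10 CPM in 1.

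**Figure D5:**
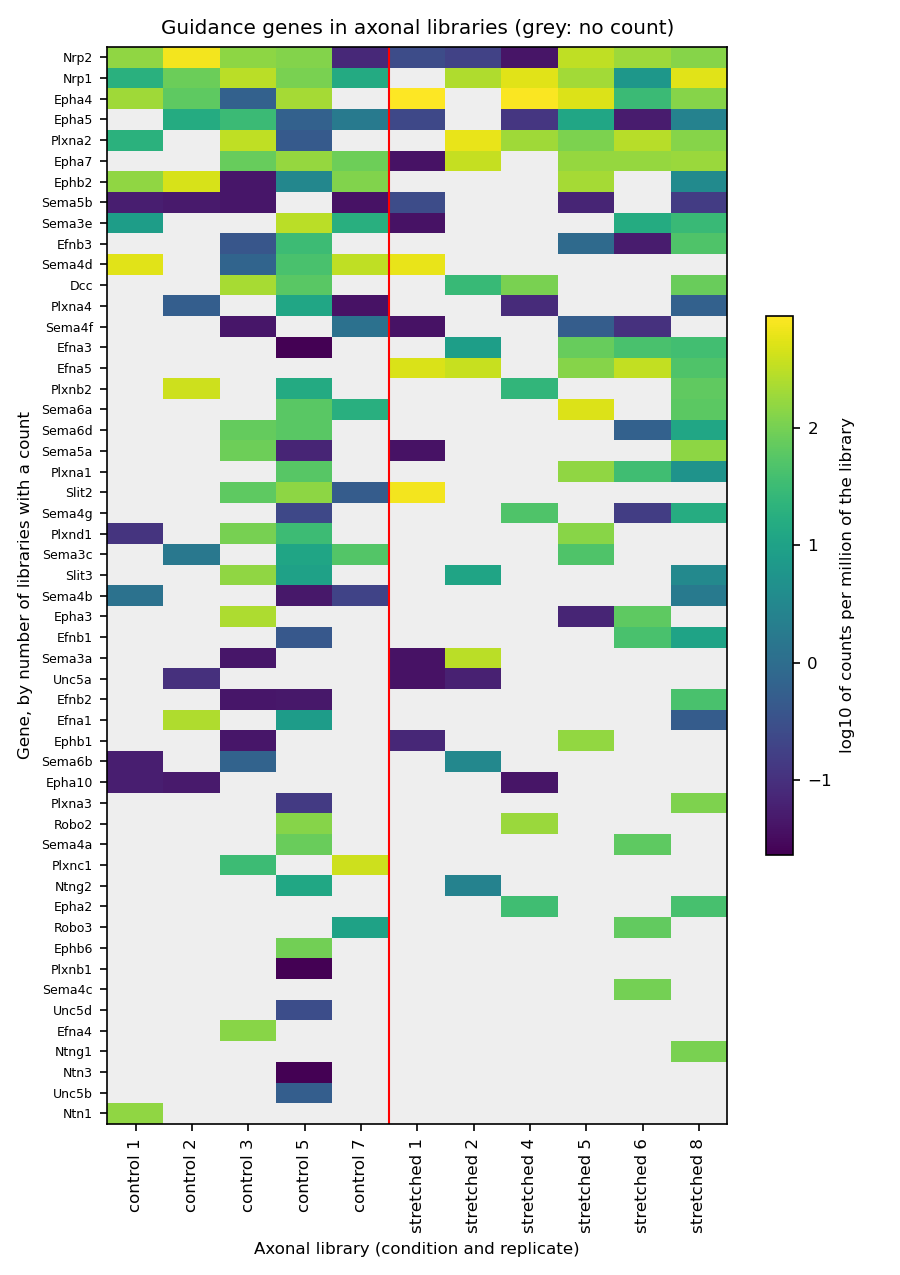
CPM (log10 colour scale) of the 52 guidance genes with a count in any axonal library, by library; grey means no count and the red line parts control from stretched libraries. Nrp2, Nrp1 and Epha4 head the order by number of libraries, and Efna5 has counts in 5 of the 6 stretched and in 0 of the 5 control libraries.

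Levels in axons spanned orders of magnitude within a group. Nrp2 stood at 157, 731, 145, 123 and 0.0777 CPM in control axons (replicates 1, 2, 3, 5 and 7) and at 0.267, 0.183, 0.0417, 322, 189 and 129 CPM in stretched axons (replicates 1, 2, 4, 5, 6 and 8). Both groups thus held libraries near the floor and libraries above 100 CPM. Nrp1 stood at 18.8, 83.7, 301, 106 and 14.9 CPM in control and at 0, 250.1, 555, 209.6, 6.30 and 545 CPM in stretched axons. Epha4 stood at 196, 63.9, 0.618, 214 and 0 CPM in control and at 888, 0, 821, 501, 30.4 and 129.7 CPM in stretched axons. In all 3 the groups overlapped and no difference was detectable.

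No guidance gene passed edgeR's test for stretch in axons. Of 4947 genes that could be tested, edgeR called 0 (0.0%), and of 11 guidance genes it called 0, with 1 of the 11 at an unadjusted p under 0.05. That gene was Efna5 (chr17:62604184-62881317, GRCm38, minus strand), which codes for ephrin-A5, a membrane-anchored repellent of hippocampal and retinal axons. It had no count in the 5 control axon libraries and stood at 483, 365, 0, 129, 336 and 48.3 CPM in the stretched ones. Counts were thus found in 5 of 6 stretched libraries and the groups touched only at 0. The stretched mean, 227 ± 195 CPM (SD, n = 6), was 1787 times a floor of 3 counts per control library. Such a ratio covers counting error only and is not a lower bound on the difference. The unadjusted p was 0.00146 and the adjusted p 0.9998 by edgeR, whereas DESeq2 gave an adjusted p of 1.37e-08 and called Efna5 alone among the 10 guidance genes with an adjusted p (0.372% of all genes with one). Efna5 passed the filter on low counts only through the stretched libraries in which it was counted, so neither p supports a difference. In somata Efna5 had medians of 23.8 and 31.5 CPM, with a log2 fold change of 0.34 (SE 0.27, adjusted p = 0.374).

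When all 4 groups shared 1 estimate of spread, 17 guidance genes were called between control and stretched axons (24.0% of all genes). Among the other tested genes, Sema4d was counted in 4 of 5 control libraries, up to 560.3 CPM, and in 1 of 6 stretched libraries, at 637 CPM. Dcc was counted in 2 control libraries, at 227 and 59.2 CPM, and in 3 stretched libraries, at 28.6, 106 and 81.0 CPM. Neither passed (adjusted p = 0.9998 by edgeR for both).

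Many guidance RNAs were called lower in axons than in somata in both conditions, and 0 were called higher. Axons were set against somata of the same condition, with values that share the soma libraries of the stretch comparison. In control cultures 35 of 65 guidance genes tested were lower in axons (53.8%; 34.4% of all genes) and 0 were higher (0.856% of all genes), with 36 at an unadjusted p under 0.05 in either direction. In stretched cultures 27 of 64 were lower (42.2%; 28.4% of all genes) and 0 higher (0.843%), with 30 at an unadjusted p under 0.05. The control and stretched comparisons share no library, and 20 genes were called lower in both. By DESeq2, which gave no adjusted p to many rarely counted genes, 34 of the 44 guidance genes with an adjusted p were lower in control axons (50.1% of all genes with one) and 26 of 39 in stretched axons (40.3%). No axonal read at all was recorded for 17 of the genes called lower in control cultures and for 20 of those called lower in stretched ones. Only 11 guidance genes passed the filter on low counts in the axonal libraries alone. Most of the genes tested here thus passed it through the soma libraries in which they were counted, and the calls of such genes alone do not support a difference.

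In control cultures the called genes with the highest soma levels were Nrp1, Slit1, Plxna3, Plxnb1 and Sema4f. Nrp1 averaged 105 ± 117 CPM in axons (SD, n = 5) and 520.5 ± 64.6 CPM in somata (SD, n = 6), a log2 fold change of -2.49 (SE 0.75, adjusted p = 0.0219). Slit1 had no count in control axons against 44.1 ± 11.6 CPM in somata, at least 347-fold lower. Plxnb1 had a count in 1 of the 5 control axon libraries, at the level of a single read, and Plxna3 too was counted in 1. Sema4f, which codes for a transmembrane semaphorin, averaged 0.250 ± 0.534 CPM in axons and 33.7 ± 5.36 CPM in somata.

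In stretched cultures the corresponding genes were Epha5, Plxnb1, Slit1, Ephb6 and Plxna4. Epha5, a receptor of A-type ephrins, averaged 2.46 ± 4.70 CPM in axons and 69.7 ± 14.9 CPM in somata (SD, n = 6 each), with a fitted log2 change of -5.24 (SE 1.65, adjusted p = 0.0304). Plxnb1, Slit1 and Ephb6, the Eph receptor without kinase activity, had no count in stretched axons and were at least 489-, 427- and 425-fold lower than in somata. Several abundant receptors were not called. Epha4 averaged 395 ± 399 CPM in stretched axons and 393 ± 22.8 CPM in somata (adjusted p = 0.908), and Nrp2 averaged 231 ± 286 CPM in control axons and 517 ± 157 CPM in somata (adjusted p = 0.474).

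Whether stretch acted differently in axons and somata was tested as an interaction over all 4 groups. It was called for 14 of 66 guidance genes (21.2%), a share close to that of all genes (21.8%). Of these 14, 7 had a count in 1 axonal library only and 12 in at most 3, so 7 of the values rest on a single library. Efna5, at 14.71 (SE 2.11, adjusted p = 0.00418), and Efna3, at 11.11 (SE 2.28, adjusted p = 0.0161), were the 2 with counts in 5 axonal libraries, all of them stretched for Efna5 and 4 of them stretched for Efna3. Fitted values of this size depend on how counts of 0 are handled and are not bounds on a fold change. DESeq2 called the interaction for 8 of the 42 guidance genes to which it gave an adjusted p (12.3% of all genes with one).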

How the data were processed

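Poly(A) RNA of 23 libraries was sequenced after low-input amplification, with unique molecular identifiers, per the labels' protocols. The authors deposited whole-number read counts per gene for each library. Per the submitters' processing notes, FastQC 0.11.9, MultiQC 1.12, fastp 0.20.1, STAR 2.7.08a and HTSeq 0.13.5 were used with the mm10 build. The annotation release, the strand setting and any use of the molecular identifiers are not given in the sources used here. Summary lines that name no gene (14.2% to 24.4% of a library) were left out. No libraries held identical counts, and 55141 of 55487 IDs had a symbol. Coordinates, lengths and GC content came from GENCODE M21 (GRCm38).

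Each comparison was fitted on its own libraries with edgeR 4.0.16 in R 4.3.3 (filterByExpr, TMM, robust quasi-likelihood F test, Benjamini-Hochberg adjustment, threshold 0.05). The fits were checked on simulated counts. In somata 16 of 49 genes set at 1.5-fold and 37 of 47 set at 2-fold were recovered, with 7 false calls. Of genes set at 16-fold, 48 of 48 were recovered in somata, 0 of 36 in axons and 1 of 49 for the interaction. For axons against somata at 16-fold, 3 of 49 were recovered in control and 10 of 41 in stretched cultures. A standard error is the log2 fold change divided by the square root of F. Soma values are TMM-normalized CPM, and axonal values are CPM of the library total. A ratio against a group without counts was computed from a floor of 3 counts per library and covers counting error only. Alternatives were other scalings, no filter, voom with quality weights (limma 3.58.1), DESeq2 1.42.0, all groups in 1 fit, a fold-change minimum, the replicate number as a block, the Eif2s3y division as covariate or subset, left-out libraries, and offsets for transcript length and GC content (mgcv 1.9.3). After seeing the data, the offsets and the lower-Eif2s3y subset were also run without control soma replicate 4.

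Named genes were, in somata, all genes called plus Nrp1, Dcc, Robo1, Robo2, Plxna1, Sema3a, Slit2, Ntn1, Epha4 and Efnb3. The 5 ligands and 5 receptors with the highest levels per kb, genes counted in at least 50% of an axonal group (at most 15, with ties), and the 5 genes lower in axons with the highest soma levels were named too. Other genes with values, such as Sema4c, Plxna2, Plxna4, Slit3, Robo3, Ntng2, Ephb1 and Ephb4, were chosen after their values were seen. The genes and lists were chosen with earlier results of these data known. Of the other marker lists in stretched somata, 1 mural or fibroblast marker was higher and 1 lower of 7, 1 oligodendrocyte marker was higher of 6, 1 excitatory marker was lower of 4, 2 of 5 somatodendritic or nuclear transcripts were lower, and 0 of 4 endothelial and 0 of 2 cycling markers were called.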

Additional observations from a re-analysis of the deposited data

Results flagged for a closer look

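In somata, control replicate 4 lay far from the other 5 control libraries, beyond Dixon's 95% limit, for 6 of the 25 genes named for somata. These 6 were the only values flagged among 52 groups of values examined, which also covered stretched somata and axonal libraries. Its normalized levels were 820.4 CPM for Nrp2, 165.1 CPM for Sema6a, 60.97 CPM for Robo2, 90.43 CPM for Slit2, 54.61 CPM for Epha3 and 88.44 CPM for Sema4d. All 6 values were above the rest of the control group. Chance singles out about 1 in 20 groups by this limit, and these 6 come from 1 library.

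The edgeR interaction test called a difference in the effect of stretch between axons and somata for 14 guidance genes (21.2%, against 21.8% of all genes). Each fitted value is the log2 fold change of stretch in axons minus that in somata. Positive values were fitted for Efna5 (14.71), Ntng1 (11.58), Epha2 (11.51), Ephb1 (11.39), Efna3 (11.11), Sema3a (11.07) and Sema4c (10.56). Negative values were fitted for Plxnc1 (-14.34), Ntn1 (-12.5), Ephb6 (-12.16), Efna4 (-11.93), Efna1 (-8.67), Unc5b (-4.41) and Unc5d (-4.18). All are log2 values that depend on how counts of 0 are handled, and in 7 of the 14 genes they rest on a count in 1 axonal library.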

How the results depend on the processing

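The 19 higher calls in somata became 0 with all 4 groups in 1 fit and among libraries with lower Eif2s3y, 12 with an absolute log2 fold change of at least 0.5, 30 with the Eif2s3y division as covariate (2504 of 15632 genes, or 16% of all, against 11.2% without it), 31 by voom with quality weights (17.2%) or without both soma libraries numbered 4 (17.7%), and 35 among libraries with higher Eif2s3y. None of the 19 changed sign in any of these. The 2 lower calls became 0 in the same 2 settings, 1 with total counts only, without a filter, with offsets and the block, or among libraries with higher Eif2s3y, 4 with the covariate, 5 by DESeq2, by voom or among libraries with lower Eif2s3y without control replicate 4, 6 without both libraries numbered 4, and 7 with offsets without control replicate 4. With single libraries left out, the higher count ranged from 12 (control replicate 1) to 31 (control replicate 4) and the lower count from 1 to 6 (control replicate 4). In axons DESeq2 called 1 gene and the fit of all 4 groups 17, and 0 were called whichever library was left out. Replicate numbers of the titles were not taken to pair libraries, because deviations of same-numbered soma libraries correlated at 0.091 to 0.233 and not every pair passed 0.1. All 5 of these correlations were positive, with a mean of 0.189 against -0.03 for different numbers, and every number shared by both soma groups lay on the same side of the Eif2s3y division in both, a hint from the data and not from the design. As a block, they gave 23 higher and 3 lower genes in somata, 54 in place of 27 lower in stretched axons against somata (53.1% of all genes, against 28.4% without it), and 0 in place of 14 interactions (0.0372% of all genes; 5 guidance genes at an unadjusted p under 0.05). By DESeq2 there were 8 interactions. Left-out libraries gave 33 to 42 (control) and 26 to 34 (stretched) genes lower in axons, 0 to 1 higher in stretched axons (1 without stretched axon replicate 4), and 12 to 19 interactions. The number of genes counted in at least 50% of the libraries, 15 in both groups, ranged from 19 to 26 in control (fewer libraries are then needed) and from 9 (without replicate 8) to 14 in stretched axons. The 24 higher pathway genes became 14 with offsets, 12 with offsets and the block, and 0 among libraries with lower Eif2s3y. The 8 lower ones became 5 with total counts or higher Eif2s3y, 3 without a filter or with offsets and the block, 2 with the block, and 0 with lower Eif2s3y. With left-out libraries they ranged from 19 to 31 and from 4 to 10. The pathway median of 0.229 became 0.0826 with offsets and 0.0807 with offsets and the block. The sign changed for Ntn1 with offsets (-0.0118), with higher Eif2s3y (-0.1442), without both libraries numbered 4 (-0.0461), with offsets without control replicate 4 (-0.156) and with control 4, control 6 or stretched 2 left out (left-out libraries gave -0.0681 to 0.4398). It changed for Epha4 with offsets (-0.2118), with offsets and the block (-0.2119), with higher Eif2s3y (-0.0089) and with offsets without control replicate 4 (-0.2601). The cause of these changes was not tested. In axons, at 5 or 6 libraries a group with most genes at 0 in some, differences were not detectable rather than absent.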
